A study of Homo sapiens with 9 samples.

Results

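Transcripts of 37 genes of endoplasmic reticulum (ER) protein folding and of the unfolded protein response were followed in Hap1 cells that depended on wild-type or variant SARS2. The members were chosen by gene name, as ER chaperones, disulfide isomerases, ER-associated degradation factors, translocon subunits and response sensors. Earlier results of these data were known when they were chosen. All 37 were found by name among the 78894 genes of the deposited tables, and all 37 were among the 16908 genes with enough counts to test. Hap1 is a near-haploid human leukaemia-derived line. SARS2 encodes mitochondrial seryl-tRNA synthetase, which charges mitochondrial tRNAs with serine. Every library came from cells with the endogenous SARS2 gene deleted (∆SARS2) and a doxycycline-inducible FLAG-tagged copy, grown for 6 days with no doxycycline. The groups differed in a constitutive myc-tagged SARS2 copy, labelled +int14, which was wild type (WT), R227Q or H448L, with 3 libraries each. The labels do not say whether a line was a single clone or whether libraries came from separate cultures.

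The ER lumen is where secreted and membrane proteins fold. HSPA5 (BiP), an ATP-driven HSP70 chaperone, and its J-domain cofactors bind nascent chains, disulfide isomerases pair their cysteines, calnexin and calreticulin retain glycoproteins until folded, and the SEL1L-SYVN1 ubiquitin ligase sends failures to the proteasome. When clients exceed capacity, the sensors ERN1 (IRE1), ATF6 and EIF2AK3 (PERK) start the unfolded protein response. IRE1 splices XBP1 mRNA, ATF6 is cleaved into a transcription factor, and PERK slows translation and raises ATF4, which other kinases of the integrated stress response also do.

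ATF6 and spliced XBP1 act through short promoter elements, and the elements are shown because they are a known input of some of these genes. Of the 37 members, 35 had a promoter window in RefSeq (GRCh38.p14, 250 bases before to 50 after a gene's start). The ER stress response element (ERSE), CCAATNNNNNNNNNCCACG on either strand, lay in the windows of 8 of these 35 genes (22.9%), against 25 of all 27305 genes (0.0916%). The second form (ERSE-II), ATTGGNCCACG, lay in 3 of 35 against 0.0696% of all genes. The core of the unfolded protein response element, TGACGTGG, lay in 4 of 35 against 0.927%. The counts of all genes include the members. Because the elements were picked as known inputs of such genes, the larger shares are not a separate finding. The bases CCACG are shared by these patterns, and in HYOU1 an ERSE-II and the core overlap. Stretches before the start of 6 members follow, 5′ to 3′ on the gene's strand, with each match in capitals. HSPA5 lies at chr9:125241351-125241449 (minus strand), HYOU1 at chr11:119057234-119057433 (minus), HERPUD1 at chr16:56931985-56932047 (plus), CALR at chr19:12938359-12938442 (plus), SDF2L1 at chr22:21642074-21642164 (plus) and XBP1 at chr22:28800598-28800661 (minus).
HSPA5: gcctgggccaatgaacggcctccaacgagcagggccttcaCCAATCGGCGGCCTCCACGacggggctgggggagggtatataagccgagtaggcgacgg
HYOU1: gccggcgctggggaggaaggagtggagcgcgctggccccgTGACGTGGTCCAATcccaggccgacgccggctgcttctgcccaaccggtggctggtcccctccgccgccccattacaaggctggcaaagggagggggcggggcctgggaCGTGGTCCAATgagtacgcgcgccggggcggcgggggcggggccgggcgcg
HERPUD1: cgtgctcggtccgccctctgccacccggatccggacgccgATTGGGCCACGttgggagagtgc
CALR: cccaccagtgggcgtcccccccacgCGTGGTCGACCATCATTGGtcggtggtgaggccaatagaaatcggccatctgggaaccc
SDF2L1: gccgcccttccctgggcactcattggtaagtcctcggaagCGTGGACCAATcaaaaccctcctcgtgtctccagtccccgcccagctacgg
XBP1: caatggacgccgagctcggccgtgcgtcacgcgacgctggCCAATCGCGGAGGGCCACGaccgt
HSPA5, CALR and XBP1 held an ERSE, in CALR on the opposite strand. HERPUD1 and SDF2L1 held an ERSE-II, in SDF2L1 on the opposite strand. HYOU1 held ERSE-II matches on the opposite strand and the core on its own strand. HERPUD1 and XBP1 were higher in R227Q cells, HSPA5, CALR and SDF2L1 were lower, and HYOU1 was not called. A match is a string of letters in a fixed window and not a measured binding site.

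Libraries had 9900892 to 12991050 counts. They came in 2 deposited tables whose column names begin with SDKYMR (WT 1, WT 2 and R227Q 1) or 4LJFHN (WT 3, R227Q 2, R227Q 3 and the H448L libraries). The labels leave the meaning of these prefixes unstated, and libraries are grouped below only by table. Of all tested genes, 43.8% differed between the tables (adjusted p under 0.05 after Benjamini-Hochberg correction, in the quasi-likelihood test of edgeR), so each comparison carried a table term. SARS2 was detected at 6.20 to 8.68 CPM, the count scaled to a library total of 1000000, and its differences between groups did not pass this test (edgeR adjusted p = 0.38 for R227Q and 0.29 for H448L against WT), and the tables do not separate its copies. Epithelial markers summed to 3.97 to 5.95 CPM, with KRT5 at 0 in every library. Fibroblast markers summed to 29.3 to 63.4 CPM in WT, 31.6 to 72.5 in R227Q and 62.1 to 74.3 in H448L. Haematopoietic markers, the lineage of the parent line, summed to 5.72 to 21.0, 7.66 to 21.7 and 19.7 to 26.8 CPM. PTPRC, the pan-leukocyte CD45, stayed at 0.69 CPM or below. Markers of plasma cells, whose ER is expanded, summed to 36.5 to 52.4, 33.7 to 47.7 and 35.4 to 38.6 CPM, mostly SDC1. Within these sums COL1A1 was 18.4 to 22.8 CPM in SDKYMR and 42.9 to 55.0 CPM in 4LJFHN. The haematopoietic marker HBG1 was at 0 CPM in SDKYMR and 13.0 to 19.9 CPM in 4LJFHN, which holds all H448L libraries. The part of the markers in the results below was not tested.

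In R227Q cells 9 of the 37 transcripts fell and 2 rose. MANF, DNAJB11, SDF2L1, SEC61A1, HSP90B1, HSPA5, CALR, EDEM1 and DERL1 fell, and XBP1 and HERPUD1 rose. The changes were small: the largest fall, EDEM1, was 1.33-fold and the largest rise, HERPUD1, 1.23-fold. The other 26 members did not pass. Among all tested genes 9.91% were lower and 7.5% higher, and the share of members that rose (5.41%) was no larger than the latter. The median log2 fold change was −0.09 against 0.00 for all genes, and 29 of the 37 values were below 0 against 49.6% of all genes. Over all genes these were 1268 higher and 1676 lower, or 1565 and 1335 with upper-quartile factors. Library ranges of R227Q and WT did not overlap for 9 members, beside 19.2% of all genes. Those of H448L and WT did not overlap for 15 members, beside 31.5%, and they also carry any difference between the tables. In bulk RNA, fewer cells with a transcript and less of it per cell cannot be told apart. The count of called members was 7 without WT 3, 7 without R227Q 1, and 1 (DNAJB11) with no table term in the fit. Fitted on 4LJFHN alone, where the lone WT 3 is assumed to vary like the other groups, HSPA5 (−0.17), XBP1 (0.18), EDEM1 (−0.37), DERL1 (−0.19) and CALR (−0.10) were no longer called.

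The HSP70 and HSP90 chaperones and their cofactors had 4 of 8 members that fell in R227Q cells and 4 that did not pass, beside 9.91% lower among all genes. HSPA5 (chromosome 9, 125234853 to 125241330, minus strand, GRCh38) stood at 338, 333 and 436 CPM in WT 1 to 3, at 302, 380 and 399 CPM in R227Q 1 to 3, and at 403, 391 and 381 CPM in H448L 1 to 3. The groups overlapped, because all 4LJFHN libraries were above all SDKYMR libraries, but within each table every variant library lay below every WT library. Its log2 fold change in R227Q was −0.17 ± 0.04 (SE; edgeR adjusted p = 0.0031), or −0.16 within SDKYMR and −0.17 within 4LJFHN. The HSPA5 call was lost without WT 3 (−0.16) or R227Q 1 (−0.17).

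DNAJB11 (ERdj3), a J-domain cofactor that delivers clients to HSPA5, stood at 156, 156 and 162 CPM in WT, 125, 132 and 133 CPM in R227Q, and 133, 141 and 128 CPM in H448L. Both variants lay below WT without overlap, and the difference of this gene between tables did not pass (−0.02 ± 0.04 log2, SDKYMR against 4LJFHN). The R227Q difference was −0.31 ± 0.04 (edgeR adjusted p = 6.2e-06), with −0.33 and −0.30 within SDKYMR and 4LJFHN. DNAJB11 shares exon bases with TBCCD1 and AC068631.1 on the opposite strand and AC068631.2 on its own, so its counts are uncertain. SDF2L1, which works with DNAJB11 in a chaperone complex, stood at 121, 132 and 100 CPM in WT, 103, 86.9 and 80.7 CPM in R227Q, and 84.1, 91.5 and 89.2 CPM in H448L. R227Q 1, from SDKYMR, overlapped WT 3, while within tables no R227Q library reached WT. The SDF2L1 difference was −0.29 ± 0.05 (edgeR adjusted p = 9.3e-05), and the within-table values were −0.31 (SDKYMR) and −0.27 (4LJFHN).

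HSP90B1 (GRP94), the ER HSP90, stood at 872, 865 and 1197 CPM in WT, 766, 1054 and 1059 CPM in R227Q, and 1064, 1079 and 1036 CPM in H448L. The ranges overlapped across tables and not within them. The HSP90B1 value in R227Q was −0.19 ± 0.04 (edgeR adjusted p = 2.3e-04), with −0.19 in each table. DNAJB9 (ERdj4), a cofactor and common marker of IRE1-XBP1 output, stood at 11.5, 12.1 and 8.503 CPM in WT, 12.4, 9.68 and 9.31 CPM in R227Q, and 9.71, 8.58 and 10.8 CPM in H448L. DNAJB9 levels overlapped between all groups, and its R227Q value of 0.09 ± 0.11 did not pass (edgeR adjusted p = 0.63). HYOU1, the nucleotide exchange factor GRP170, SIL1, another exchange factor of HSPA5, and DNAJC3 (P58IPK), a J-domain cofactor, had log2 values of −0.00, −0.05 and −0.15 and did not pass.

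**Figure D1:**
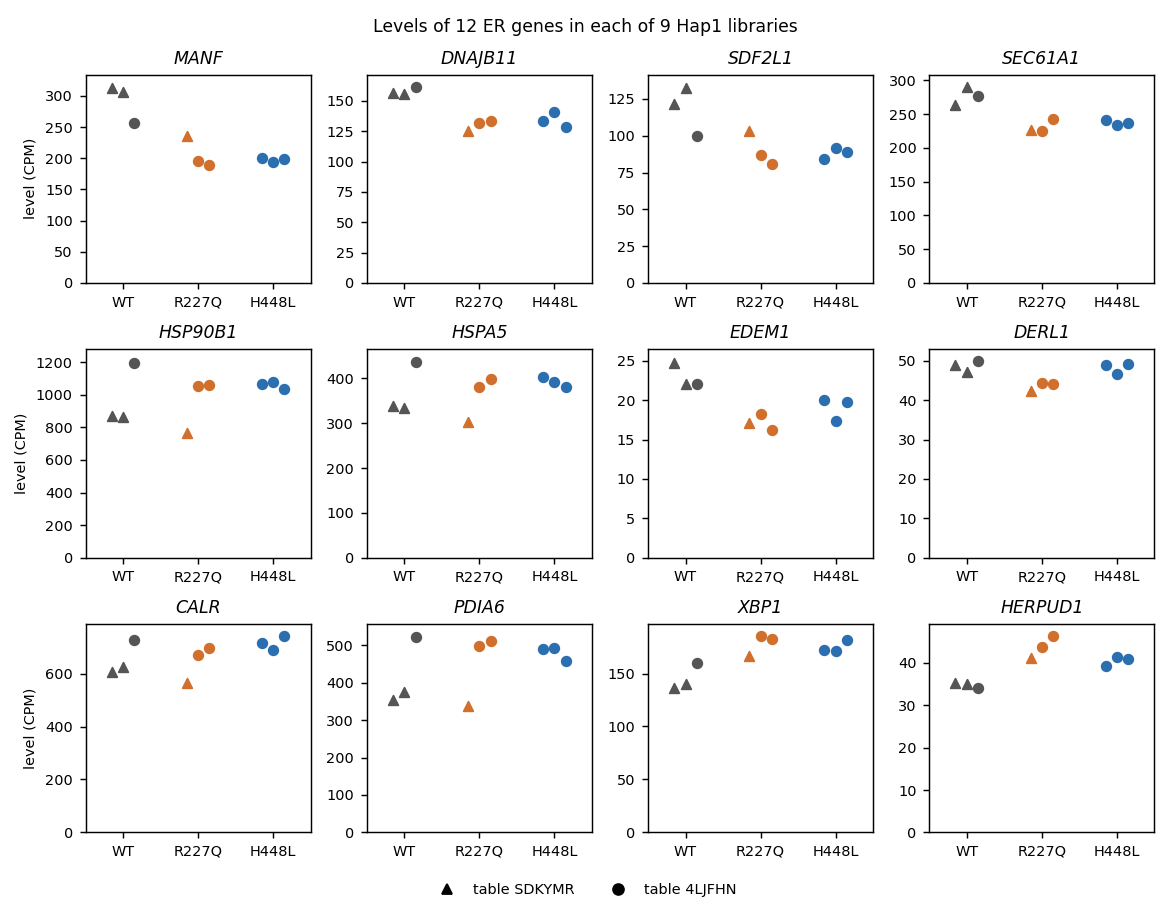
Level in CPM (vertical axes, from 0) of 12 ER genes in each of 9 libraries, grouped by the SARS2 copy (horizontal axes); each point is 1 library, triangles are table SDKYMR and circles 4LJFHN. MANF, DNAJB11 and SEC61A1 in R227Q and H448L lay below all WT libraries, whereas HSPA5, HSP90B1, CALR and PDIA6 separated by table first.

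Disulfide isomerases and oxidases gave no call in R227Q cells: 0 of 10 passed edgeR's test, beside 9.91% lower and 7.5% higher among all genes. Log2 fold changes ran from −0.14 for TXNDC11 to 0.26 for ERO1B, and 8 of 10 were below 0. P4HB, the classical disulfide isomerase, stood at 272, 278 and 399 CPM in WT and 287, 393 and 378 CPM in R227Q, a log2 value of −0.01 ± 0.04. PDIA4 (−0.10), PDIA3 (−0.09), which works on calnexin clients, PDIA6 (−0.08), TXNDC5 (−0.10), PDIA5 (−0.10) and the reductase DNAJC10 (0.01) did not pass either. The oxidases that recharge the isomerases were at −0.12 ± 0.05 for ERO1A and 0.26 ± 0.14 for ERO1B (edgeR adjusted p = 0.14 and 0.24).

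Of the lectin chaperones, CALR (calreticulin, soluble) fell and CANX (calnexin, membrane-bound) did not pass. CALR stood at 606, 626 and 728 CPM in WT, 564, 672 and 698 CPM in R227Q, and 717, 690 and 742 CPM in H448L. R227Q lay below WT only when libraries of the same table were set side by side. The CALR difference was −0.12 ± 0.04 (edgeR adjusted p = 0.032), and the within-table values were −0.14 (SDKYMR) and −0.10 (4LJFHN). Leaving out a library ended this call in 5 cases: WT 1 (−0.12), WT 2 (−0.11), WT 3 (−0.14), R227Q 1 (−0.10) and R227Q 2 (−0.10). Upper-quartile factors ended it too (−0.09). CANX was at −0.09 ± 0.04 (edgeR adjusted p = 0.099).

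LMAN1, the lectin that carries glycoproteins from ER to Golgi, had differences of opposite sign in the tables. It stood at 131 and 125 CPM in WT 1 and 2 against 145 CPM in R227Q 1, and at 193 CPM in WT 3 against 157 and 159 CPM in R227Q 2 and 3. R227Q was thus above WT in SDKYMR (0.17 log2) and below it in 4LJFHN (−0.29), which cancelled to −0.07 ± 0.06 in the joint fit. The difference of the R227Q effect between tables was 0.48 (edgeR unadjusted p = 5.0e-06, adjusted p = 0.083). No gene passed a test of that difference, 0% of 16543, and LMAN1 was the only member with an unadjusted p under 0.05, beside 5.08% of all genes. Without R227Q 1 the LMAN1 value was −0.30 and passed. The H448L libraries, all in 4LJFHN, stood at 167, 175 and 180 CPM, between WT 3 and R227Q 2 and 3.

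**Figure D2:**
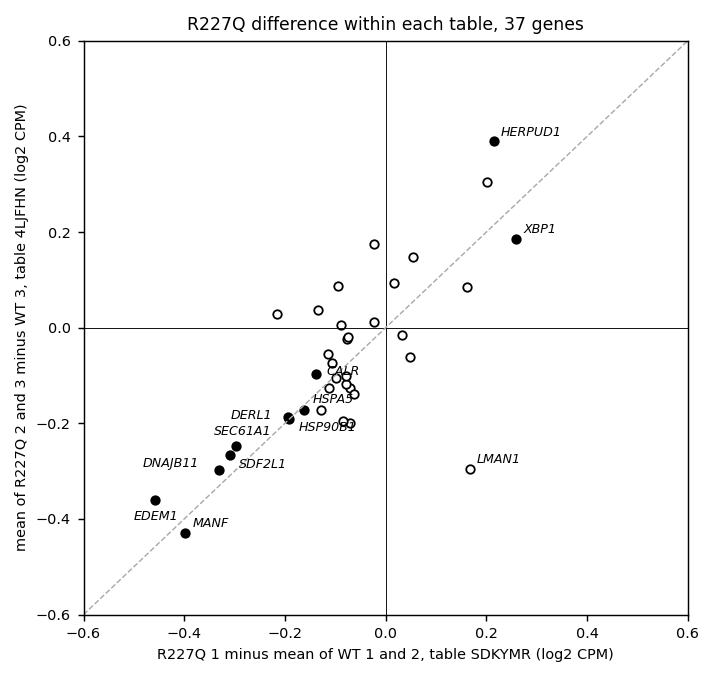
Difference of mean log2 CPM between R227Q and WT for the 37 genes within table SDKYMR (horizontal axis) and within 4LJFHN (vertical axis); filled points passed the joint test, and the dashed line marks equal values. The 11 filled points have the same sign on both axes, from −0.46 and −0.36 for EDEM1 to 0.21 and 0.39 for HERPUD1, and LMAN1 (0.17 and −0.29) lies away from the line. The filled points were picked by a fit on these same libraries, so their shared sign is not a separate test.

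Of the ER-associated degradation genes, 1 of 8 rose in R227Q cells, 2 fell and 5 did not pass, beside 7.5% higher and 9.91% lower among all genes. HERPUD1 (chromosome 16, 56932048 to 56944863, plus strand), a membrane scaffold of the SYVN1 complex, stood at 35.2, 34.9 and 34.1 CPM in WT, 41.1, 43.9 and 46.2 CPM in R227Q, and 39.2, 41.3 and 40.9 CPM in H448L. Every variant library lay above every WT library. In R227Q cells HERPUD1 rose by 0.30 ± 0.06 on the log2 scale (edgeR adjusted p = 9.5e-04), and the within-table values were 0.21 (SDKYMR) and 0.39 (4LJFHN). Leaving out WT 3 ended the HERPUD1 call (0.21).

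EDEM1, a mannosidase-like protein that extracts misfolded glycoproteins from folding, stood at 24.8, 22.1 and 22.1 CPM in WT, 17.1, 18.3 and 16.3 CPM in R227Q, and 20.0, 17.4 and 19.8 CPM in H448L. Neither variant overlapped WT. The EDEM1 value in R227Q was −0.42 ± 0.09 (edgeR adjusted p = 9.5e-04), and the within-table values were −0.46 (SDKYMR) and −0.36 (4LJFHN). The call was lost without R227Q 1 (−0.37), and the annotated gene shares 653 exon bases with an antisense gene. Its relative EDEM2 was at 0.07 ± 0.07 and did not pass.

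DERL1, a membrane channel factor of retrotranslocation, stood at 48.8, 47.2 and 50.02 CPM in WT, 42.3, 44.4 and 44.1 CPM in R227Q, and 48.9, 46.7 and 49.1 CPM in H448L. R227Q lay below WT in every library, whereas H448L overlapped WT. DERL1 fell by 0.19 in R227Q (SE 0.06, edgeR adjusted p = 0.019), which ended on omitting WT 1 (−0.18), WT 3 (−0.20) or R227Q 1 (−0.19), and with DESeq2 (−0.20). DERL2, the scaffold SEL1L, the ligase SYVN1 and the lectin OS9 had values of −0.14, 0.06, 0.13 and −0.00 and did not pass.

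Among the translocon subunits, through which nascent chains enter the ER, the channel subunit SEC61A1 fell and the small subunits SEC61B (−0.05) and SEC61G (−0.04) did not pass. SEC61A1 stood at 264, 291 and 276 CPM in WT, 226.8, 225.4 and 243.4 CPM in R227Q, and 242, 233 and 237 CPM in H448L. Both variants lay below all WT libraries. SEC61A1 fell by 0.27 in R227Q (SE 0.04, edgeR adjusted p = 5.2e-05), and the within-table values were −0.30 (SDKYMR) and −0.25 (4LJFHN). It shares 344 exon bases with RUVBL1 on the opposite strand.

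XBP1 was the single member of the sensor group that moved. It stood at 136, 140 and 160 CPM in WT, 167, 185 and 182 CPM in R227Q, and 172, 171 and 182 CPM in H448L. Every variant library lay above every WT library. XBP1 rose by 0.22 ± 0.04 in R227Q (edgeR adjusted p = 3.4e-04), and the within-table values were 0.26 (SDKYMR) and 0.19 (4LJFHN). Leaving out R227Q 1 ended the call (0.19). Gene-level counts do not tell spliced from unspliced XBP1 mRNA, and XBP1 has 1 named pseudogene. The sensors themselves, ERN1 (−0.10 ± 0.13) and ATF6 (−0.05 ± 0.06), did not pass, and EIF2AK3, the third sensor, was at −0.09 ± 0.14 (edgeR adjusted p = 0.68, 0.66 and 0.72).

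Of the secreted proteins of the response, MANF, which binds HSPA5 and leaves the cell under ER calcium loss, had the smallest p of the 37 genes. MANF (chromosome 3, 51385047 to 51389397, plus strand) stood at 312, 306 and 257 CPM in WT, 236, 196 and 189 CPM in R227Q, and 201, 195 and 198 CPM in H448L. All 6 variant libraries were below all 3 WT libraries. The MANF value in R227Q was −0.41 ± 0.04 (edgeR adjusted p = 7.9e-09), and the within-table values were −0.40 (SDKYMR) and −0.43 (4LJFHN). CRELD2, a secreted disulfide isomerase-like protein, was at −0.10 ± 0.05 and did not pass (edgeR adjusted p = 0.21).

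The H448L comparison had the same WT libraries, so its values are set beside those of R227Q and not counted as a repeat. All H448L libraries were in 4LJFHN with a single WT library, WT 3, and the other WT libraries entered through the table term. MANF, DNAJB11, SEC61A1, SDF2L1, HSP90B1, HSPA5 and PDIA6 fell, no member rose and 30 did not pass, beside 4.99% lower and 2.97% higher among all tested genes. The median log2 fold change of the 37 genes was −0.11 against 0.01 for all genes, and 29 were below 0 against 48.8% of all genes. The count was 2 without WT 3, 4 without R227Q 1, 11 without H448L 1, and 1 (MANF) with no table term.

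MANF fell by 0.39 in H448L (SE 0.05, edgeR adjusted p = 1.6e-06), with −0.40 within 4LJFHN. DNAJB11 fell by 0.30 (SE 0.05, edgeR adjusted p = 2.7e-04), with −0.29 within 4LJFHN. Neither call was lost on leaving out a library. SEC61A1 fell by 0.26 (SE 0.05, edgeR adjusted p = 0.0015) and HSP90B1 by 0.20 (SE 0.04, 0.0018), and leaving out WT 3 ended both calls (−0.30 and −0.20).

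HSPA5 fell by 0.17 in H448L (SE 0.05, edgeR adjusted p = 0.015), and leaving out any of 3 libraries ended the call: WT 3 (−0.17), R227Q 1 (−0.18) and H448L 2 (−0.17). SDF2L1 fell by 0.22 (SE 0.06, edgeR adjusted p = 0.018), which did not hold without WT 3 (−0.25), R227Q 1 (−0.21) or H448L 1 (−0.19). PDIA6, a disulfide isomerase that binds HSPA5 and IRE1, stood at 353, 375 and 521 CPM in WT and 490, 494 and 458 CPM in H448L. Those H448L libraries were below WT 3 of the same table and above WT 1 and 2. The gene shares 1033 exon bases with ATP6V1C2 on the opposite strand. PDIA6 fell by 0.16 (SE 0.05, edgeR adjusted p = 0.033), and the call was lost without WT 2 (−0.14), WT 3 (−0.20), R227Q 1 (−0.14), R227Q 3 (−0.15) or H448L 3 (−0.12), and with upper-quartile factors (−0.14). In 4LJFHN alone HSPA5 (−0.18), SDF2L1 (−0.21) and PDIA6 (−0.14) were not called.

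The other 9 disulfide isomerases and oxidases did not pass in H448L, although TXNDC5 (−0.21 ± 0.07) stood near the threshold at an edgeR adjusted p of 0.051. TXNDC5 passed without R227Q 2 (−0.24) or H448L 1 (−0.28), and with RLE factors, no filter on low counts or a replicate block. It shares 2658 exon bases with BLOC1S5-TXNDC5 on its own strand, so its counts are uncertain. PDIA3 (−0.13), PDIA4 (−0.14), SEC61B (−0.13) and SEC61G (−0.13) did not pass in the main fit and passed without H448L 1 (−0.17, −0.17, −0.15 and −0.16). Each also passed with no filter on low counts or with a replicate block. XBP1 (0.13 ± 0.05), HERPUD1 (0.16 ± 0.07) and EDEM1 (−0.26 ± 0.10), which were called in R227Q, did not pass in H448L (edgeR adjusted p = 0.11, 0.21 and 0.11). DNAJB9 was at 0.13 ± 0.13, CALR at −0.06 ± 0.04, DERL1 at −0.08 ± 0.07 and ERO1B at 0.37 ± 0.16, and none of these passed.

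Whether the variants differed from each other was tested directly. No member was called between H448L and R227Q by edgeR, DESeq2 or limma-voom, beside 0.124% lower and 0.0828% higher among all tested genes. At an edgeR unadjusted p under 0.05 were 5 of the 37 members (EDEM2, SIL1, HERPUD1, XBP1 and SEC61G), beside 17 of 133 other ER genes. The share of all genes at that level was not counted, so whether 5 is many cannot be said. The log2 difference, H448L minus R227Q, ran from −0.22 ± 0.07 for EDEM2 to 0.23 ± 0.08 for SIL1 (edgeR adjusted p = 0.21 and 0.23). EDEM2 stood at 45.3, 44.5 and 44.1 CPM in R227Q and 40.3, 39.3 and 32.7 CPM in H448L, without overlap. SIL1 stood at 20.5, 19.6 and 19.8 CPM in R227Q and 22.4, 24.7 and 22.5 CPM in H448L, also without overlap. The variants' ranges did not overlap for 6 members, beside 13.3% of all genes. HERPUD1 was at −0.14 ± 0.06 and XBP1 at −0.09 ± 0.04 (edgeR adjusted p = 0.39 and 0.41), lower in H448L. MANF (0.03 ± 0.04), HSPA5 (−0.01 ± 0.04), DNAJB11 (0.01 ± 0.05) and HSP90B1 (−0.01 ± 0.03) differed little beside the values against WT. A call in R227Q and none in H448L is therefore not a tested difference between the variants.

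**Figure D3:**
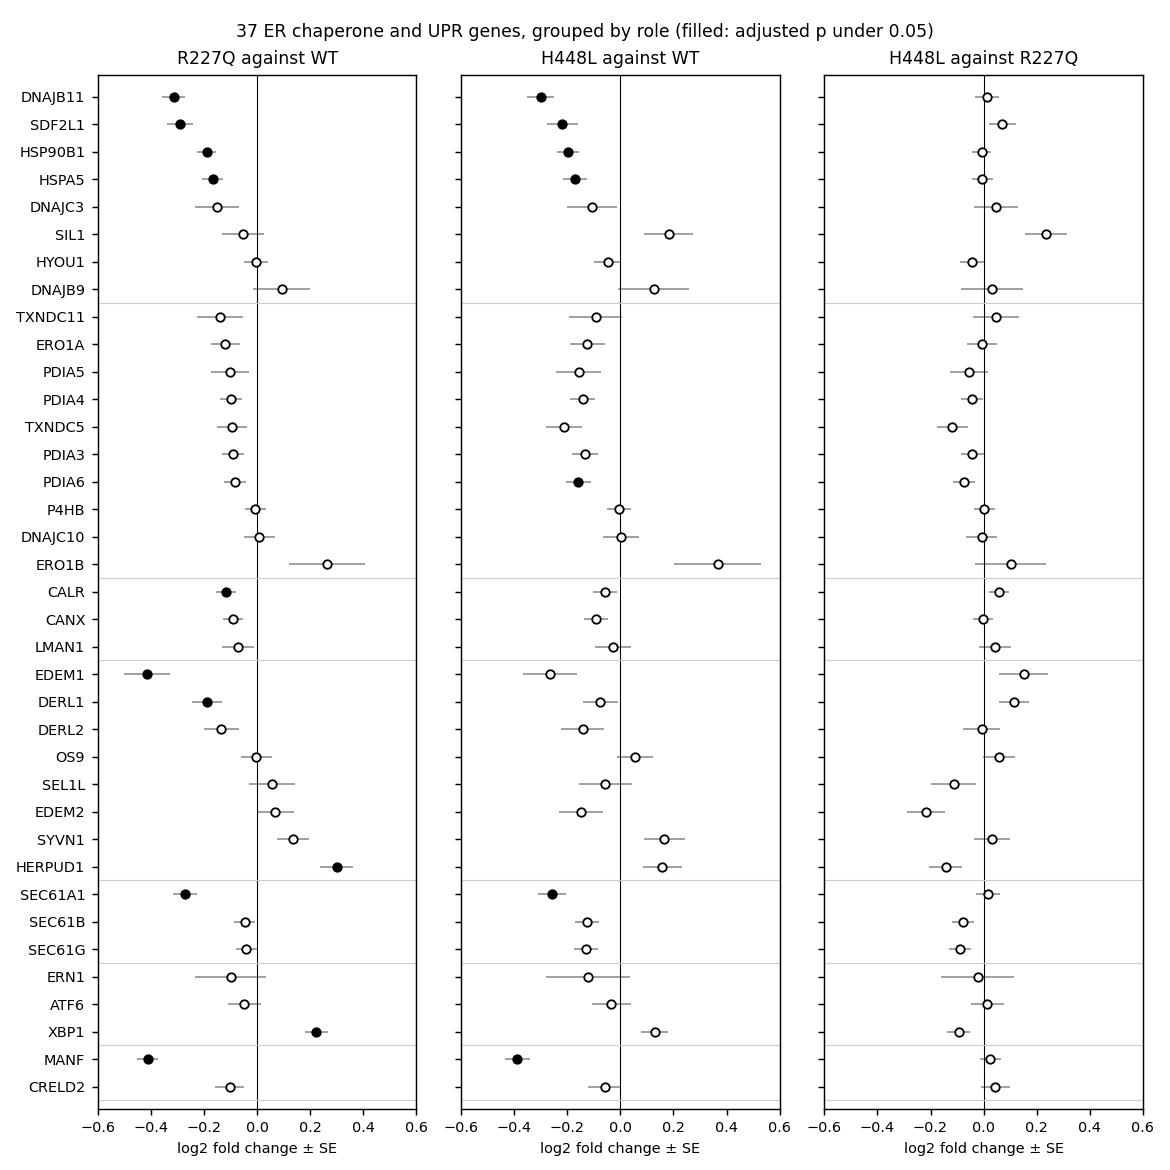
Log2 fold change (horizontal axes) with SE bars of the 37 genes in 3 comparisons, grouped by role between the grey lines and ordered by the R227Q value; filled points have an edgeR adjusted p under 0.05. R227Q has 11 filled points, H448L 7 and the direct comparison 0, and the disulfide isomerases and oxidases, in the second block, hold 0, 1 and 0 of them.

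Members were also counted by promoter element. The 11 genes with an ERSE or ERSE-II had 2 that rose and 4 that fell in R227Q, with a median of −0.09, and the 24 genes with neither had 0 that rose and 4 that fell, with a median of −0.08, beside 7.5% higher and 9.91% lower among all genes. In H448L 4 of the 11 and 3 of the 24 fell, with medians of −0.06 and −0.12, beside 4.99% of all genes. The classes were not tested against each other. HSP90B1, PDIA6, CANX, ERO1B and CRELD2 were the other genes with an ERSE. MANF, DNAJB11, SEC61A1 and EDEM1, which are 4 of the 5 largest falls in R227Q, had neither form in these windows. PDIA3 and DERL1 were not matched to a window.

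Other ER genes, from lists by function that were chosen with earlier results of these data known, were counted in the same fits. Of 133 tested outside the ATF4 arm, 31 fell and 7 rose in R227Q, and 20 fell and 2 rose in H448L, with medians of −0.04 and −0.07. The same fits had 9.91% of all genes lower and 7.5% higher in R227Q, and 4.99% and 2.97% in H448L, and the counts of every list below are read beside these shares. The shares of the 133 that rose (5.26% and 1.504%) were below those of all genes. The translocation and signal peptidase list had 11 of 22 that fell in R227Q and 5 of 22 in H448L, with medians of −0.14 and −0.08, and no member of it rose. SERP1, which stabilises membrane proteins at the translocon, stood at −0.44 ± 0.04 in R227Q and −0.28 ± 0.05 in H448L. SSR3, a subunit of the translocon-associated TRAP complex, was at −0.35 ± 0.04 in R227Q and −0.29 ± 0.05 in H448L, and SRPRB, the signal recognition particle receptor's membrane subunit, was at −0.36 ± 0.06 in H448L. The SSR3 call in H448L was lost without WT 3 (−0.24). With no table term in the fit, the calls of SERP1, SSR3, MESD and ASNS held in R227Q. In H448L those of SRPRB, SEC13 and ASNS held. The calls of the other genes named from these lists were lost. SERP1 in H448L was not run in this or the other alternatives.

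Other folding enzymes had 5 of 28 that fell (17.9%) and 3 that rose (10.7%) in R227Q, and 3 (10.7%) and 2 (7.14%) in H448L. MESD, a chaperone of LDL receptor family proteins, was at −0.39 ± 0.05 and −0.31 ± 0.06 in the variants, and PRDX4, an ER peroxiredoxin, at −0.29 ± 0.04 and −0.24 ± 0.05. The PRDX4 call in H448L was lost without WT 3 (−0.24), and its H448L value was −0.11 with no table term. Further degradation factors had 4 of 24 that fell in each variant and none that rose. SELENOK was at −0.39 ± 0.05 in R227Q and −0.30 ± 0.06 in H448L (−0.66 and −0.90 with no table term), VCP, the ATPase that pulls substrates from the membrane, at −0.21 ± 0.04 in R227Q (−0.12 with no table term), and SELENOS at −0.24 ± 0.06 in H448L (−0.11 with no table term). Without WT 3 the H448L calls of SELENOK (−0.23) and SELENOS (−0.28) were lost, and SELENOS was also lost without R227Q 1 (−0.22).

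N-glycosylation genes had 5 of 28 that fell and 4 that rose in R227Q, and 4 and 0 in H448L. STT3B and RPN1, subunits of the oligosaccharyltransferase, were at −0.26 ± 0.04 and −0.21 ± 0.04 in R227Q, and at −0.24 ± 0.05 and −0.27 ± 0.04 in H448L, where STT3B was lost without WT 3 (−0.21). With no table term STT3B was at −0.17 and −0.06. ER-Golgi retrieval and COPII genes had 2 of 16 that fell in R227Q (12.5%) and 1 in H448L (6.25%), shares near the 9.91% and 4.99% of all genes. SEC13, a COPII coat subunit, was at −0.26 ± 0.04 and −0.39 ± 0.05. SAR1B, the COPII GTPase, was at −0.19 ± 0.06 in R227Q, lost without WT 2 (−0.18), WT 3 (−0.19), R227Q 1 (−0.20) or R227Q 3 (−0.17).

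Other response signalling genes had 4 of 15 that fell in R227Q and 3 in H448L, and none rose. MBTPS2, the protease that makes the final cut in ATF6, was at −0.27 ± 0.06 in R227Q (lost without R227Q 1, −0.25) and −0.26 ± 0.07 in H448L (lost without WT 3, −0.30, R227Q 1, −0.24, or H448L 3, −0.20, and −0.17 with no table term). RTRAF, a subunit of the tRNA ligase complex that rejoins XBP1 mRNA, was at −0.17 ± 0.04 in R227Q (lost without WT 3, −0.18, or R227Q 1, −0.16) and −0.23 ± 0.04 in H448L (lost without WT 3, −0.24). In 4LJFHN alone MBTPS2 in both variants, RTRAF and SAR1B in R227Q and SELENOS in H448L were not called. SAR1B was not called either with DESeq2 or with no filter on low counts, nor MBTPS2 in H448L with a replicate block.

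In the ATF4 and CHOP arm 8 of 12 genes rose in R227Q, beside 7.5% of all genes, and 4 of 12 in H448L, beside 2.97%. No gene of the list fell, 4 and 8 did not pass, and the medians were 0.26 and 0.20. The list was chosen with earlier results of these data known, so its shares describe it and are not a separate test. DDIT3 (CHOP), a transcription factor downstream of ATF4, was at 0.78 ± 0.06 in R227Q and 0.65 ± 0.08 in H448L. With no table term DDIT3 was at 0.55 and 0.14 and neither call held (edgeR adjusted p = 0.24 and 0.71). ASNS, asparagine synthetase, was at 0.55 ± 0.05 and 0.48 ± 0.06. ATF4 itself was at 0.13 ± 0.04 in R227Q (edgeR adjusted p = 0.027) and 0.13 ± 0.05 in H448L (0.11). That R227Q call of ATF4 ended on omitting WT 1 (0.10), WT 3 (0.14), R227Q 1 (0.12) or R227Q 2 (0.12), with DESeq2 (0.12) and in 4LJFHN alone (0.12), and the value was −0.04 with no table term.

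**Figure D4:**
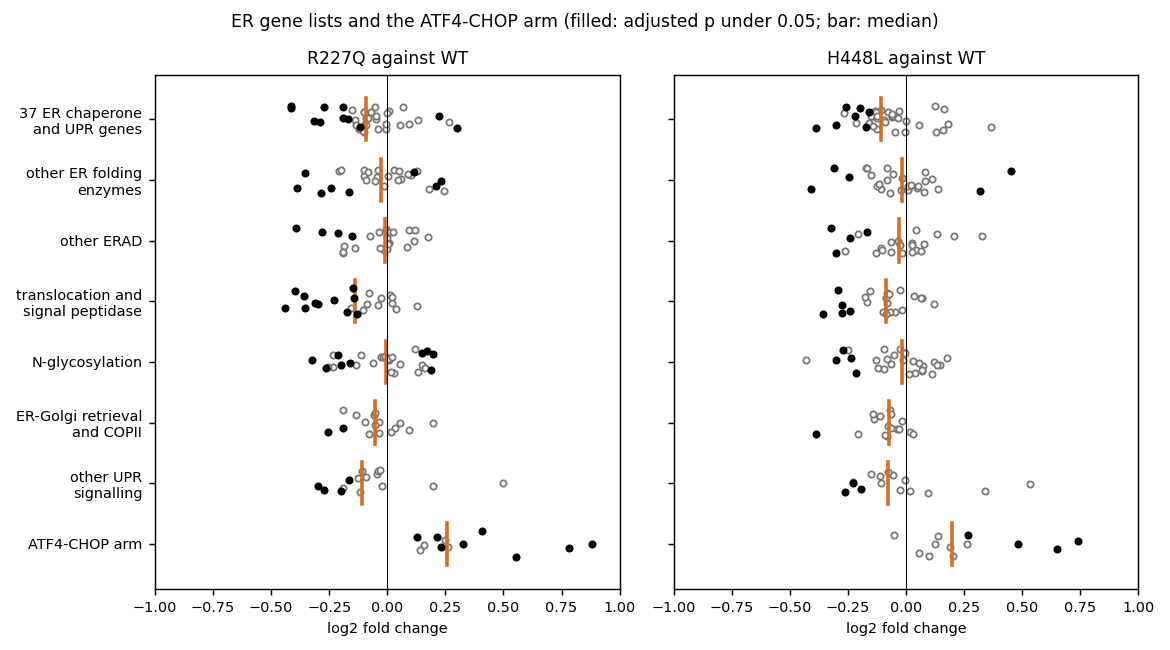
Log2 fold change (horizontal axes) of the 37 genes and 7 further lists (rows) in R227Q and H448L against WT; each point is a gene, filled where the edgeR adjusted p was under 0.05, and the orange bar is the list's median. The medians of the 37 genes and the 6 further ER lists lie below 0 in both panels, and that of the ATF4-CHOP arm lies at 0.26 and 0.20. Some ER medians are close to that of all genes (0.002 and 0.006). In R227Q N-glycosylation genes were at −0.004, with 14 of 28 values below 0, and other degradation factors at −0.009. In H448L N-glycosylation genes and other folding enzymes were each at −0.018.

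More of the 37 genes differed by table than by variant. Between SDKYMR and 4LJFHN 26 of 37 differed, beside 43.8% of all genes, with 9 higher and 17 lower in SDKYMR and a median of −0.13. SYVN1 was 0.88 ± 0.06 higher in SDKYMR, at 50.1, 52.0 and 57.5 CPM there and 29.7 to 34.6 CPM in 4LJFHN, and its exons overlap those of FAU and MRPL49. PDIA6 (−0.50), P4HB (−0.43), HSP90B1 (−0.41) and SEC61G (−0.40) had the largest differences in the other direction, lower in SDKYMR. MANF (0.33) and SDF2L1 (0.37) were among the 9 members higher there. Of the plasma cell markers, SDC1, MZB1, TNFRSF17 and JCHAIN were higher in every SDKYMR library than in any of 4LJFHN. IRF4 and PRDM1 overlapped between the tables. JCHAIN stood at 4.43 to 5.77 CPM in SDKYMR and at most 0.081 CPM in 4LJFHN. Whether the JCHAIN counts came from the Hap1 cells, and their part in these values, was not tested. The summed level of the 37 genes was 6481 and 6481 CPM in WT 1 and 2 against 6020 in R227Q 1, and 7567 CPM in WT 3 against 7011 and 7119 in R227Q 2 and 3. The H448L sums were 7120, 7060 and 6906 CPM. Within each table the variant libraries were below the WT libraries.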

How the data were processed

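A sequencing company received the lysates and did RNA extraction, poly-A capture, tagmentation and Illumina amplification, per the labels' protocols. Per the submitters' processing notes the reads were placed on GRCh38. Aligner, counter and use of strand: not given in the sources used here. The authors deposited estimated counts per gene, not normalized, and CPM, the count divided by the library total and scaled to 1000000, per the file headers. Between 89.1% and 90.1% of count values per library were whole. Of the members, 26 had a fractional count somewhere and 22 share exon bases with another GENCODE (release 29) gene, so these counts are less certain. Another 92 spike-in entries were left out.

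Counts were rounded, filtered with filterByExpr (16908 genes) and scaled with TMM factors (0.969 to 1.02). The model held group and deposited table (column prefix SDKYMR or 4LJFHN) over all 9 libraries (5 residual degrees of freedom), and edgeR's quasi-likelihood test was read two-sided at a Benjamini-Hochberg adjusted p under 0.05 over all genes tested. Standard errors are log2 fold changes divided by the root of F. Within-table values subtract mean log2 CPM (prior count 2) and carry no test. The software was R 4.3.3 with DESeq2 1.42.0, limma 3.58.1 and edgeR 4.0.16. The fit was run on simulated counts with a shared spread for all genes and changes in R227Q only. That run does not test gene-specific spread or the H448L comparison. Alternatives were other factors, tools and filters, unrounded counts, no table term, 4LJFHN alone, a replicate block and leaving out each library. The p-values reflect only how these libraries varied, which may be technical.

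The members and lists were chosen with earlier results of these data known. Values in every library are given for HSPA5, XBP1, DNAJB9, HERPUD1, MANF and, per comparison, the 6 largest rises and falls among called members; per further list the 2 called genes with the smallest p are named, with EIF2AK3, ATF4 and DDIT3. DERL1, CALR, PDIA6, LMAN1, P4HB, EDEM2, SIL1 and SYVN1 are shown per library outside that rule, chosen after their values were seen.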

Additional observations from a re-analysis of the deposited data

How the results depend on the processing

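Most calls depended on the table term: with no table term 1 member was called in R227Q (DNAJB11) and 1 in H448L (MANF), and over all genes 312, 147 and 1 for R227Q and H448L against WT and H448L against R227Q, beside 2944, 1347 and 35. In that fit H448L values against WT turned for HSP90B1 (0.064), HSPA5 (0.034), PDIA6 (0.16), DNAJB9 (−0.21) and the members' median (0.019), R227Q DNAJB9 stood at −0.067, and H448L minus R227Q at −0.14 for DNAJB9, 0.095 for HSPA5, −0.095 for MANF and 0.027 for the median. Otherwise DNAJB11, HSP90B1, MANF, SDF2L1 and SEC61A1 kept their R227Q calls, and DNAJB11 and MANF their H448L calls, under every alternative run. The 4LJFHN table alone called 7 and 4 members and 1138 and 734 genes, and gave a median of 0.0011 between the variants. DESeq2 called 1546 (506 higher, 1040 lower), 733 (143 and 590) and 54 genes. Upper-quartile factors gave 1565 higher and 1335 lower in R227Q, against 1268 and 1676, and 584 and 652 in H448L, against 503 and 844. With no filter on low counts 11 members fell in H448L, and 122 genes differed between the variants. Leaving out single libraries gave 7 to 11 members in R227Q and 2 to 11 in H448L, and 1093 to 3262, 253 to 1378 and 4 to 91 genes. Between the variants it gave −0.045 to 0.11 for DNAJB9, −0.039 to 0.023 for HSPA5 and −0.015 to 0.016 for the median. Same-numbered libraries had correlations of −0.56 to 0.66 around their group means, which also carry the table split. WT 1 and R227Q 1, of the same table, were at 0.66, and WT 2 and R227Q 2, of different tables, at −0.56. These correlations cannot show whether the numbers mark pairs, and here the numbers only name libraries. With a replicate block 10, 9 and 0 members and 2669, 1055 and 31 genes were called, without CALR in R227Q (−0.10) and SDF2L1 in H448L (−0.19). The causes of these changes were not tested. Lone WT 3 and R227Q 1 limit what either table can show.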

Other observations

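Some transcripts of blood and connective tissue genes followed the table and not the SARS2 copy. They were looked at after the marker values had been seen. HBG1 and HBG2, the fetal beta-type globins, were at 0 in all 3 SDKYMR libraries and at 13.0 to 19.9 and 46.1 to 67.2 CPM in the 6 libraries of 4LJFHN. The alpha globins HBA1 and HBA2 stood at 6.62 to 10.3 and 2.21 to 3.91 CPM in SDKYMR and at 73.7 to 97.3 and 41.6 to 56.9 CPM in 4LJFHN, while HBB stayed at 0.27 CPM or below. These globins are near-identical pairs, so the split within a pair is uncertain. The collagens COL1A2 and COL3A1 were at most 0.38 and 0 CPM in SDKYMR and at 5.34 to 10.2 and 2.19 to 4.15 CPM in 4LJFHN.

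Immunoglobulin transcripts had the opposite pattern. IGHM stood at 13.2 to 18.9 CPM, IGLC2 at 16.8 to 24.8 CPM and IGKC at 5.28 to 7.85 CPM in SDKYMR. In 4LJFHN IGHM and IGKC were listed at 0 and IGLC2 was at most 0.23 CPM. JCHAIN, which joins secreted immunoglobulin, and MZB1, an HSPA5 partner in antibody-making cells, followed the same split, at 4.43 to 5.77 and 0.93 to 1.38 CPM in SDKYMR and at most 0.081 and 0.27 CPM in 4LJFHN. Whether the counts of these globin, collagen and immunoglobulin transcripts came from the Hap1 cells or from reads of other material was not tested, nor was their part in the levels of the 37 genes.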
